A study of Mus musculus with 6 samples.

Results

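These results describe what the DNA-binding domain of mouse CREB1, measured by itself, preferred among designed variants of a single 16-base composite site. The measurements come from 2 of the 6 arrays of the study, both labelled CREB1-GST, a fusion that carries glutathione S-transferase (GST) at its N terminus. The members were the 60-base custom probes that hold the 16-mer either unmutated or with 1 or 2 base substitutions, at start base 1, 11 or 21 and on either strand. There were 6774 such probes among the 6889 custom sequences of the design: 6 unmutated, 288 with a single and 6480 with a double substitution. Each of the 48 possible single and 1080 possible double substitutions was therefore present in 6 placements. Every variant was set against the unmutated 16-mer in the same placement on the same array, and no other protein group entered any value.

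On a protein binding microarray, a primer is extended along each synthetic probe to give double-stranded DNA, a tagged protein is bound, and the fluorescence at each spot reports how much protein is held there. The labels give the CREB1 domain as a GST fusion in a modified pDEST15 vector, made with the PURExpress in vitro translation kit. The reaction held 570 ng of plasmid in a volume of 250 µl and ran for 2 h at 37 °C, and 230 µl of it was put on an array read with Cy5. Only the isolated bZIP domain was present, without the rest of CREB1 and without other nuclear proteins. The labels do not say whether both arrays came from separate protein preparations, so the p-values measure the spread between these arrays, which may be technical.

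CREB1 is a basic leucine zipper (bZIP) transcription factor best known for turning on genes in response to cAMP. bZIP proteins bind DNA as dimers through a coiled coil, and each basic helix reads one arm of a short, usually palindromic site in the major groove. The cAMP response element (CRE), TGACGTCA, is such a palindrome: both strands read the same, and each dimer partner meets the same bases in its own arm. ETS factors such as GABPα instead recognise a GGAA core, which the composite site carries next to the CRE.

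The 6 unmutated probes are shown because every effect below is measured against one of them. The 16-mer is in capitals and the backbone in lower case, 5′ to 3′, and the reverse probes carry the reverse complement. Positions are counted from 1 at the 5′ end of the 16-mer in its forward reading, so the ETS core lies within positions 1 to 7, position 8 is the G that precedes the CRE, and the CRE fills positions 9 to 16.
Start 1 forward: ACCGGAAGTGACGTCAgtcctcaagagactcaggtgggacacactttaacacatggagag
Start 11 forward: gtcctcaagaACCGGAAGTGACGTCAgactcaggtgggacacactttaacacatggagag
Start 21 forward: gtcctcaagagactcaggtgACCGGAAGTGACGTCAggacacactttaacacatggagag
Start 1 reverse: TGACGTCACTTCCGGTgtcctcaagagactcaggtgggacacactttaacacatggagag
Start 11 reverse: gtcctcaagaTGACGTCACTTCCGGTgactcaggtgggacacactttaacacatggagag
Start 21 reverse: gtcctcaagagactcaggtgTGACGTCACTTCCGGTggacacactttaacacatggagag
In what follows, positions 9 to 12 are called the first arm, whose outer neighbour is always G8, and positions 13 to 16 the second arm, whose outer neighbour belongs to the backbone. Read outward on its own strand, the second arm is preceded by C in the 3 forward placements, by A at start 11 reverse and by G at start 21 reverse. At start 1 reverse it sits at the very end of the probe, with no base before it.

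The unmutated site gave strong signal in every placement, but not the same signal. At start 1 forward the mean processed intensity was 45899 on array 1 and 40483 on array 2, at start 11 forward 46343 and 44058, and at start 21 forward 33130 and 32210. At start 1 reverse it was only 17118 and 19971. At start 11 reverse it was 57820 and 54170, and at start 21 reverse 56415 and 52768. The reverse placements thus held both the dimmest and the brightest unmutated sites on either array, and the order of the 6 placements was the same on both arrays.

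The bright reverse placements reached the scanner's ceiling. Of the spots of the unmutated site, 23.9% and 25% were saturated on arrays 1 and 2 at start 11 reverse, and 4.44% and 25.5% at start 21 reverse, against none in the other 4 placements. Leaving the saturated spots out moved these means by at most 0.02 on the log2 scale. The remaining spots were themselves bright, so this small shift cannot show how far the ceiling compressed the signal. The room below the unmutated site differed as well: it stood 4.72 and 4.66 log2 units above the dimmest sequence counted as above background at start 1 forward, and only 3.30 and 3.64 at start 1 reverse. Losses larger than that could not be measured there. Values printed below that go beyond this room rest on signal at background and are not exact. Bounds are added for the deepest averages.

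Probes with simple repeats in place of the 16-mer, in the start 11 backbone, show the signal without a site. The (CT)8 repeat gave log2 intensities of 10.26 and 11.25, (GC)8 10.86 and 11.56, (CA)8 11.40 and 12.02, and (CG)8 11.85 and 12.61. The unmutated site at start 11 forward, at 15.50 and 15.43, was 9.41-fold above the brightest of these repeats. The 4 repeats thus mark no single level: they lay from 9.41-fold to 26.2-fold below the site, with (CT)8 at background on array 1. Some substituted sites described below fell under this range in the same placement. The repeats were themselves brighter on array 2.

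Of the member probes, 86.1% were above background on array 1 and 92.2% on array 2. The arrays gave nearly the same effects, with a Pearson correlation of 0.996 over the 1128 averaged effects, which share the unmutated probes and are given as a description. In limma's test of the average over the 6 placements, with Benjamini-Hochberg adjustment over all 1128 variants, 899 variants were lower than the unmutated site (79.7% of those tested) and 0 were higher, also at an unadjusted p under 0.05. In the test of each placement by itself, 5344 of 6768 effects were lower (79.0%) and 14 were higher (0.207%). Most changes of the 16-mer that touched the CRE therefore lowered CREB1 signal, and gains were rare. At start 11 and 21 reverse some unmutated spots were already at the scanner's ceiling, which left little room for a gain there.

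Substitutions in the ETS part were nearly silent. None of the 21 single changes at positions 1 to 7 passed limma's test, and 0 had an unadjusted p under 0.05, and their averaged effects ran from -0.12 for C3T to 0.06 for A6T on the log2 scale, with standard errors of 0.06 to 0.07 (n = 2 arrays). This includes all changes of the GGAA core at positions 4 to 7, the bases that an ETS protein reads. By position, the mean effect at positions 1 to 7 lay between -0.09 at position 4 and 0.03 at position 6. In single placements, 1 change passed as lower, A1T at start 1 reverse, at -0.20 and -0.22 on arrays 1 and 2 (adjusted p = 0.0491).

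G8, the base between the ETS core and the CRE, mattered in a graded way. Replacing it by A gave -0.15 on each array, which did not pass the test (adjusted p = 0.113, SE 0.06). The change to C gave -0.45 and -0.50 and lowered the signal to 71.9% of the unmutated site (adjusted p = 0.00766). G8T gave -0.73 and -0.79 and left 59.1% (adjusted p = 0.00237). All 3 effects were deepest at start 1 reverse, where G8A stood at -0.36, G8C at -1.33 and G8T at -1.79, and the G8T effect at start 11 reverse was only -0.37.

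Within the CRE, all 24 single substitutions lowered the signal and all 24 passed the averaged test, with adjusted p from 0.000803 to 0.0193. The central CG was the most sensitive pair in the average over placements. At start 1 reverse, where some values were at background, position 11 had the largest mean loss. It was -3.36 there, against -2.56 at position 12 and -3.03 at position 13. C12A fell by 3.72 on array 1 and 3.09 on array 2, leaving 9.44% of the signal, and its mirror image G13T fell by 3.88 and 3.30, leaving 8.33%. Because some of their placements were at background, these are at least 10.5-fold and at least 11.7-fold losses. The sites read, with the changed base in capitals:
C12A: accggaagtgaAgtca
G13T: accggaagtgacTtca
At the same positions, C12T (-1.55) and G13A (-1.71) cost much less than C12G (-2.66) and G13C (-2.68). The transition at either central base, which turns the CG into TG or CA, was thus the mildest of the 3 changes there.

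Changes beside the central pair were also costly, more so in the first arm. A11C gave -2.99 and -2.52 on arrays 1 and 2, A11G -1.88 and -1.54, and A11T -1.68 and -1.53. On the other arm, T14G gave -2.15 and -1.77, T14C -1.41 and -1.18, and T14A -1.18 and -0.97. At both positions the change that puts C on the strand of the arm's TGAC (A11C, and T14G seen from the other strand) was the most damaging. A11C retained 14.8% and T14G 25.7% of the unmutated signal.

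The outer bases of the arms differed. By position, the mean effect in the first arm was -1.27 at position 10 and larger again, -1.60, at the outermost position 9. It was -1.44 at position 14, and only -0.61 at position 15 and -0.64 at position 16 in the second. In the first arm G10A gave -1.51, G10C -1.45 and G10T -0.85 on average, with SE of 0.07 to 0.10, and at the outermost base T9G gave -1.95, T9A -1.69 and T9C -1.17. In the second arm C15T gave -0.86, C15G -0.61 and C15A -0.36, and at the end A16C gave -0.83, A16T -0.71 and A16G -0.38. The mildest changes of the CRE, C15A and A16G, kept 77.9% and 76.9% of the signal. The order of the 3 changes was the same in both arms at each mirrored pair of positions, although some neighbours in that order, such as G10A and G10C, differed by less than their errors. The change to T at position 10 (A at 15) was the mildest, and the change to C at position 9 (G at 16) was the mildest at the outer end.

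Every one of the 24 losses was larger on array 1 than on array 2. Over all 1128 variants, 695 had the lower effect on array 1. With a single pair of arrays this offset is part of the error of each value: the standard errors in the CRE ran from 0.06 for C15A to 0.19 for C12A.

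Since the CRE is a palindrome, each change in the first arm has a mirror image in the second that presents the same altered site to the dimer, and the pair differs only in what lies outside. A double with 1 change in each arm has a mirror image of the same kind, so such a pair does not set arm against arm. The first member of a pair is the variant with the lower-numbered changes, or the first by letter where positions are equal. Of the 132 mirror pairs, 12 of single and 120 of double changes, 107 passed the test of their difference (81.1%). In 104 of them the first member lost more (78.8%), and in 3 the second (2.27%). Among the single pairs, all 9 at the outer 3 positions lost more in the first arm. T9G lost more than A16C by 1.11 on array 1 and 1.15 on array 2 (difference -1.13, SE 0.04, adjusted p = 0.000145). T9A against A16T differed by -0.98, and T9C against A16G by -0.79.

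Averaged over the placements, the difference shrank toward the centre and was small and of opposite sign there. G10C lost 0.84 more than C15G (difference -0.84, SE 0.04), G10A against C15T differed by -0.65, and G10T against C15A by -0.49. A11C against T14G differed by -0.79, A11T against T14A by -0.53 and A11G against T14C by -0.41. At the central pair, C12A lost slightly less than G13T (0.18, adjusted p = 0.0146) and C12T slightly less than G13A (0.16, adjusted p = 0.0172), while C12G and G13C differed by 0.02, which did not pass (adjusted p = 0.724). In the average over placements, the arm next to G8 was thus the more sensitive of both arms at its 3 outer bases and not at the central CG.

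This asymmetry was a property of some placements and not of others. Tested within each placement, 97 of 132 pairs passed at start 1 forward, 90 at start 11 forward, 79 at start 21 forward and 88 at start 1 reverse. In 94, 89, 78 and 75 of them the first member of the pair lost more. Over the 792 combinations of pair and placement, 50.4% passed, 45.3% with the larger loss in the first member and 5.05% with the larger loss in the second. Only 14 passed at start 11 reverse and 31 at start 21 reverse, where 19 of the 31 had the larger loss in the second member. Among the 12 single pairs, 6 lost more in the first arm at start 1 forward, 6 at start 11 forward, 8 at start 21 forward and 9 at start 1 reverse. A11G against T14C passed only at start 1 reverse (-1.62), with -0.09, -0.03 and -0.22 forward. A11T against T14A and G10T against C15A passed only at start 21 forward (-0.38 and -0.52) and start 1 reverse (-1.93 and -1.81). At the centre, C12A against G13T passed only at start 1 forward (0.42) and start 1 reverse (0.85). It was negative at start 11 and 21 reverse (-0.24 and -0.14). C12T against G13A passed in no single placement. For T9A against A16T the difference was -1.13, -1.37 and -1.59 in the forward placements at start 1, 11 and 21, and -2.09 at start 1 reverse, but 0.06 at start 11 reverse and 0.21 at start 21 reverse. The latter pair of placements are those with saturated unmutated spots, and they also are the only ones in which a purine precedes the second arm, as G8 precedes the first. The part of either in the result was not tested, and in this design they cannot be told apart.

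The same placements held smaller losses altogether. The mean effect of the 24 CRE changes was -1.58 at start 1 forward, -1.63 at start 11 forward, -2.20 at start 21 forward and -2.07 at start 1 reverse, against -0.96 at start 11 reverse and -1.16 at start 21 reverse. T9A was typical: -1.64, -1.81 and -2.60 in the forward placements, -2.71 at start 1 reverse, and -0.68 and -0.73 at start 11 and 21 reverse. G13T, which left little signal anywhere, gave -4.19, -3.94 and -4.20 forward, and -3.55, -2.46 and -3.16 reverse. Only 9 of its 12 values were above background, and its loss at start 1 reverse is a lower limit. Losses thus ran smaller from the 2 brightest unmutated sites. Across the 48 single effects, Spearman's rho between placements lay between 0.850 and 0.957, as a description over variants that share their unmutated probes. Pearson's r was lowest, at 0.763, between start 1 reverse and start 21 reverse. The 48 include the nearly silent changes of the ETS part, so rho does not isolate the order within the CRE. That order was not fully kept. At start 1 reverse A11T (-3.24) lost more than C12A (-2.70), but at start 21 reverse less (-0.88 against -3.31). The difference between A11T and C12A was not tested.

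Forward minus reverse differences of the same substitution at the same start were tested over 3384 combinations, of which 2148 passed (63.5%), 1615 with the larger loss forward (47.7%) and 533 with the larger loss reverse (15.8%). Among single substitutions 55 of 144 passed. At starts 11 and 21 the loss was larger forward in all but 2 of the passing single changes, and T9G at start 21, with -2.79 forward and -0.79 reverse, differed most, with differences of -2.13 on array 1 and -1.86 on array 2 (adjusted p = 0.00161). Next came T9A (-2.60 and -0.73), G13C (-3.60 and -1.85), G10A (-2.40 and -0.74) and G13A (-2.48 and -0.96), all at start 21.

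At start 1 the direction was the opposite: 11 of the 12 single changes that passed lost more in reverse. A11T gave -1.18 forward and -3.24 reverse (difference 2.06, SE 0.10, adjusted p = 0.00161). G10C gave -1.23 and -2.75, T9G -1.95 and -3.47, and G10T -0.56 and -2.07. A11G gave -1.39 forward and -2.89 reverse, but its reverse value was less certain, with -3.53 on array 1 and -2.25 on array 2 (adjusted p of the difference 0.0394). All 5, the largest such differences, lie in the first arm. The changes of G8, outside the CRE, also passed in this direction: G8T differed by 1.29, G8C by 1.02 and G8A by 0.27. For T9G and A11G, 3 of the 4 values behind the difference were above background, so their reverse losses are lower limits. C12A, at the centre, was the exception that lost more forward, with -3.77 forward and -2.70 reverse (adjusted p = 0.00189).

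Moving the site along the probe changed the losses as well. Of 2256 comparisons of start 1 with start 21 on the same strand, 1478 passed (65.5%), 863 with the smaller loss at start 1 (38.3%) and 615 with the larger (27.3%). In the forward orientation all 21 single changes that passed lost less at start 1 than at start 21. A11G gave -1.39 and -2.36 (difference 0.97, SE 0.09, adjusted p = 0.000346), T9A -1.64 and -2.60, A11T -1.18 and -2.12, G10A -1.48 and -2.40, and G10C -1.23 and -2.15. On the reverse strand 17 of the 20 that passed lost more at start 1. T9G gave -3.47 at start 1 and -0.79 at start 21 (difference -2.67, SE 0.10, adjusted p = 3.33e-05), A11T -3.24 and -0.88, G10C -2.75 and -0.68, T9A -2.71 and -0.73, and A11C -3.95 and -2.01. Only 2 of the 4 values behind the A11C difference and 3 of the 4 behind the T9G difference were above background. Their losses at start 1 are therefore lower limits.

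The strand and start differences of doubles were larger still, but most rested on probes at background. A1T with A11G gave -1.49 at start 1 forward and -4.71 at start 1 reverse (difference 3.23), with A1C+A11G, C3T+A11G, A6G+A11G and G4C+A11G close behind at 3.03, 2.90, 2.87 and 2.73. In the other direction C12A+T14C gave -6.25 forward and -2.67 reverse (difference -3.58), followed by G10A+G13T at -3.30, C12A+G13A at -3.25, C12A+G13C at -3.20 and C12A+G13T at -3.03. At most 2 of the 4 array and placement values behind each of these 10 differences were above background. Between start 1 and start 21 on the reverse strand, A1T+A11G, A1T+T9G, A1C+T9G, A1C+A11G and A6G+A11G differed by -3.47 to -3.19, and C12A+T14A, C12A+A16C, C12A+G13C, C12A+G13A and G13T+A16C by 2.15 to 2.40, with 2 or 3 of 4 values above background.

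Double substitutions fell into classes by where their changes lay. With both changes at positions 1 to 8, 47 of 252 were lower and the median effect was -0.06, against -1.59 over all 1080 doubles. The lowest of these carried the G8 change, A1T+G8T at -0.92. With 1 change at positions 1 to 8 and 1 in the first arm, all 288 were lower, at a median of -1.78 (29.2% of the unmutated signal), and with 1 in the second arm instead 287 of 288 were lower, at a median of -1.17 (44.6%). Both changes in the first arm gave a median of -3.45 over 54 doubles, and both in the second arm -2.81 over 54, of which 53 were lower. With 1 change in each arm and the palindrome broken, the median over 132 doubles was -4.02, or 6.18% of the unmutated signal. Few of the dim doubles were above background throughout: 7 of the 54 within the first arm and 17 of the 132 across the arms. With the bounds in place of values at background, the medians of these classes were -3.43 and -3.87.

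The 10 deepest losses each joined a change of T9 or A11 with a change at positions 12 to 14. T9G+G13C was lowest, at -5.52 and -4.71 on arrays 1 and 2, with 3 of its 12 array and placement values above background, which makes the loss at least 20.6-fold. T9G+G13T (-5.09), A11G+G13C (-5.02), T9A+G13T (-4.98), T9A+G13C (-4.96), T9G+C12A (-4.94), T9G+C12G (-4.91), A11C+G13T (-4.90), T9G+T14G (-4.89) and T9A+T14G (-4.88) followed. Each had 2 or 3 values above background, so the order among them carries no weight, and their bounds ran from 19.1-fold to 20.7-fold. The lowest sites, with changed bases in capitals, were:
T9G+G13C: accggaagGgacCtca
T9G+G13T: accggaagGgacTtca
A11G+G13C: accggaagtgGcCtca

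At the other end, no double exceeded the unmutated site in the averaged test. The highest averages all lay in the ETS part, and none passed. Among them A6T+A7G (0.11), A6C+A7G (0.11), A6G+A7T (0.10), G5C+A7C (0.09), A6C+A7C (0.09) and G4A+A6C (0.07) have both changes within the GGAA core, with adjusted p from 0.234 to 0.409. These 6 sites gave between 105% and 108% of the unmutated signal. Among doubles within the CRE, those at its outer end on the second arm were mildest: C15A+A16G kept 89.4% (-0.16, adjusted p = 0.102), C15G+A16G 81.2% and C15A+A16T 80.7%. They are named because they were the mildest, after their values were seen.

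The 12 doubles that change mirrored bases together keep the CRE a palindrome and alter both arms alike. All 12 were lower, at a median of -3.82, beside -4.02 for the 132 doubles across the arms that break the palindrome. They spread widely. G10T+C15A was the mildest, at -1.52 and -1.27 on arrays 1 and 2, and kept 38.0% of the signal. T9C+A16G came next, with -2.82 and -2.31 (16.9% kept), and then G10C+C15G, with -3.40 and -2.72. These 3 sites were:
G10T+C15A: accggaagtTacgtAa
T9C+A16G: accggaagCgacgtcG
G10C+C15G: accggaagtCacgtGa

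The other palindromes lost more. G10A+C15T gave -3.65, A11T+T14A -3.66, C12T+G13A -3.68 and T9A+A16T -3.96 on average, with 8 to 10 of 12 values above background. C12G+G13C gave -4.15, T9G+A16C -4.30, A11G+T14C -4.51, C12A+G13T -4.68 and A11C+T14G -4.86, with 3 to 6 of 12 values above background and bounds of 15.3-fold to 19.1-fold. The mildest palindrome thus combined both of the mildest changes at positions 10 and 15. The order among the deepest carries no weight, with only 3 to 6 of their 12 values above background.

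If both changes acted independently and the signal had neither floor nor ceiling, their log2 effects would add. The departure from that sum was tested for all 1080 doubles in the average over placements: 418 passed (38.7%), 126 with less loss than the sum (11.7%) and 292 with more (27.0%). Sums that fall below background cannot be reached, which gives positive departures by construction, so counts are given over doubles above background with both their singles in every placement on both arrays, 681 in all, of which 59 departed upward and 69 downward. This choice favours bright doubles and so upward departures. A second count took doubles whose expected sum lay above the background floor everywhere, without using the signal of the double. It held 712 doubles, 42 upward and 95 downward. Signal near its upper limit can hold the losses of singles small, which gives negative departures, and neither count removes this. Its part in the downward departures below was not tested.

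Doubles with both changes in the first arm went both ways, and those at positions 9 and 10 lost less than the sum. No first-arm double had an expected sum above the floor in every placement. Among those expected above the floor in a single placement, 14 departed upward and 13 downward at start 1 forward (median -0.03), 14 and 7 at start 11 forward, 6 and 1 at start 21 forward, 15 and 12 at start 11 reverse, and 16 and 21 at start 21 reverse (median -0.20). The 7 that were above background throughout departed upward by 0.67 to 1.81 on average, but they were kept for being bright, and that count supports no direction for the class. T9A+G10C gave -1.40 and -1.27 on arrays 1 and 2 where its singles sum to -3.15 (departure 1.81, SE 0.06, adjusted p = 2.26e-06). By placement it departed by 1.75, 1.96 and 2.77 forward and by 2.67, 0.81 and 0.90 reverse at starts 1, 11 and 21. T9A+G10A departed by 1.52, T9A+G10T by 1.32, T9C+G10A by 1.31 and T9C+G10C by 1.30. The averaged signal of T9A+G10C was higher than that of either T9A (-1.69) or G10C (-1.45) with a single change. In 8 of the 9 doubles at positions 9 and 10 the loss was smaller than that of the costlier single change, and all 9 departed upward. The difference between a double and its single was not itself tested. These sites, with the changed bases in capitals, read:
T9A+G10C: accggaagACacgtca
T9A+G10T: accggaagATacgtca
T9C+G10T: accggaagCTacgtca
The last of them, T9C+G10T, gave -1.03 and -0.93, against -1.17 for T9C and -0.85 for G10T.

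Doubles within the second arm departed in a direction that differed with the placement. In the average, 20 of the 30 above background departed upward and 5 downward, at a median of 0.32, and of 30 expected above the floor 19 departed upward and 7 downward. Among those expected above the floor in a single placement, 14 departed upward and 1 downward at start 21 forward and 16 and 0 at start 1 reverse, but 14 and 16 at start 1 forward, 14 and 9 at start 11 forward, 9 and 15 at start 11 reverse (median -0.27) and 12 and 21 at start 21 reverse (median -0.38). At positions 15 and 16 all 9 departed upward, by 0.74 on average. Positions 13 with 15 and 13 with 16 ran the other way, with 6 and 7 of 9 departing downward, at means of -0.56 and -0.61. In the average C15A+A16G, at -0.16, was above both C15A (-0.36) and A16G (-0.38). It was above both at start 11 forward, 21 forward and 1 reverse. At start 1 forward it (-0.26) lay below A16G (-0.20), and at start 11 and 21 reverse (-0.29 and -0.33) below C15A (-0.19 and -0.30). These differences were not tested. Neighbouring positions departed upward on average at every step along the CRE, from 0.40 at positions 13 and 14 and at 14 and 15 to 1.39 at positions 9 and 10, with doubles at background included in these means.

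Doubles with a change in each arm lost more than the sum. Of the 19 above background, 17 departed downward and 2 upward, at a median of -0.89, and of the 24 whose expected sum was above the floor all 24 departed downward, at a median of -1.04. By pairs of positions, the mean departure was lowest for positions 9 and 16 (-1.42), 9 and 14 (-1.22) and 9 and 15 (-1.13), and in each of these pairs all 9 doubles departed downward. C12T+A16T gave -3.51 where its singles sum to -2.26 (departure -1.26, SE 0.08, adjusted p = 8.44e-06), and T9C+C15G gave -2.96 against a sum of -1.77 (departure -1.18). Among the palindromes, T9A+A16T departed by -1.55, T9G+A16C by -1.52, A11G+T14C by -1.50, G10A+C15T by -1.27, T9C+A16G by -1.02, G10C+C15G by -0.999, A11T+T14A by -0.98, C12T+G13A by -0.42 and G10T+C15A by -0.19. Only the central C12A+G13T (2.31) and C12G+G13C (1.18) departed upward, with sums of -6.99 and -5.34 that lay below the floor in most placements. A11C+T14G (-0.14) did not pass, and its sign changed with the processing.

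Doubles of G8 with a change in the second arm also lost more than the sum. In this class 27 of 36 doubles were above background with both singles. Of these, 20 departed downward and 0 upward in limma's test, adjusted or not, at a median of -0.64. G8T+A16C gave -2.80 against a sum of -1.58 (departure -1.22, SE 0.06, adjusted p = 2.26e-06), G8T+T14C departed by -1.18 and G8T+A16T by -1.11. The same counts held for the 27 doubles expected above the floor. At start 1 reverse alone, 0 of 27 departed downward and 0 upward, at a median of 0.04. In the other placements 18 to 24 of those expected above the floor there departed downward, at medians of -0.62 to -0.91. With a change in the first arm no direction was settled: 8 of 14 above background departed upward and 1 downward, but of 5 expected above the floor 1 departed upward and 1 downward. Counted within placements over doubles expected above the floor there, 5 departed upward and 7 downward at start 1 forward, 7 and 9 at start 11 forward, 7 and 4 at start 21 forward, 1 and 0 at start 1 reverse, 2 and 6 at start 11 reverse, and 3 and 6 at start 21 reverse. At positions 8 and 9 the mean departure was 0.50, with 8 of 9 doubles upward, and at 8 and 12 it was -0.47, with 7 of 9 downward. Changes at positions 1 to 7 mostly added to those in the CRE: with the first arm 10 of 124 doubles above background departed upward and 13 downward, at a median of -0.03, and with the second arm 8 of 208 upward and 13 downward, at a median of -0.04. Over doubles expected above the floor these were 10 upward and 29 downward of 164 and 8 upward and 14 downward of 210.

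The downward departures across the arms were present in 5 of 6 placements. Among doubles expected above the floor in a placement, their median departure was -1.61 at start 1 forward, -1.50 at start 11 forward, -0.58 at start 21 forward, -1.35 at start 11 reverse and -1.83 at start 21 reverse. At start 1 reverse it was 0.02 over 24 doubles, of which 1 departed upward and 0 downward (1 downward at an unadjusted p under 0.05 in limma's test). T9A+A16T, for example, departed by -2.05, -1.93 and -0.61 forward, by -2.03 and -2.82 at start 11 and 21 reverse, and by 0.15 at start 1 reverse. In these tests of single placements 7.16% of all 6480 departures passed upward and 13.5% downward. With the saturated placements left out of the average, 23 of the same 24 doubles still departed downward, at a median of -0.88. Start 1 reverse and start 21 forward, which had the lowest unmutated signal, also had the median departures of smallest size. The part of the signal level in these departures was not tested.

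A simple description of the sites is the number of copies of the 5-base word TGACG, counted as TGACG or its reverse complement CGTCA anywhere in the 60 bases, copies that overlap included. The unmutated probes hold 2 copies, 1 from each arm, which overlap in the CRE, shown here in capitals:
Unmutated, start 1 forward: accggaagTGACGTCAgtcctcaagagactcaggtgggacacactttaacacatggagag
Of the variants in the start 1 forward placement, 30.9% hold no copy, 44.6% hold 1, 24.4% hold 2 and 0.177% hold 3. The median effect there was -4.01 with no copy, -1.22 with 1 and -0.03 with 2. At start 11 reverse the same medians were -2.77, -0.74 and -0.04, and at start 1 reverse -3.18, -2.17 and -0.18. This count follows from which positions were changed, so it restates the positional pattern and is no separate test.

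A few variants in which a copy was regained or added are described here, chosen after their values were seen. A7C+G10C rebuilds a lost copy at a new place. G10C breaks the first arm, and A7C, which gave 0.00 by itself on average, creates CGTCA from position 7 to 11, so that 2 copies stand side by side in the same direction and no longer overlap. The averaged effect of the double was -0.29, beside -1.45 for G10C, and the departure was 1.16 (SE 0.06, adjusted p = 3.73e-06), the highest among all doubles of positions 1 to 7 with the first arm. At start 1 reverse the double was above the unmutated site, at 0.67 and 0.35 (adjusted p = 0.0401), where G10C gave -2.80 and -2.71. It was lower at start 1 forward (-0.68), start 21 forward (-0.64), start 21 reverse (-0.39) and start 11 forward (-0.35), and at start 11 reverse, at -0.19, it did not pass.
A7C+G10C, start 1 forward: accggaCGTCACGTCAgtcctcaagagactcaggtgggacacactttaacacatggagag
A7C+G10C, start 1 reverse: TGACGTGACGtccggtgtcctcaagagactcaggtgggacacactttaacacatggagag
G10C, start 1 reverse: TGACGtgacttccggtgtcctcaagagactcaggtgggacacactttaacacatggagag

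G4T+A7C keeps the CRE and adds a copy beside it, for 3 in all. It was higher than the unmutated site at start 1 reverse, at 0.67 and 0.39 (adjusted p = 0.0297), and lay between -0.08 and 0.01 in the other 5 placements, none of which passed. Other higher calls were A6T+A7G at start 21 forward (0.22, adjusted p = 0.0486), which adds no copy and was no longer called under 6 of the other 8 processing settings, and C15A+A16G (0.40, adjusted p = 0.0159) and C15A+A16C (0.32, adjusted p = 0.0393) at start 1 reverse, which keep 1 copy. Both of these remove the outer end of the second arm, which at start 1 reverse is the free end of the probe, and both were lower than the unmutated site in each of the other 5 placements.
G4T+A7C, start 1 reverse: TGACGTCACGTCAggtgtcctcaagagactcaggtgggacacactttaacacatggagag
C15A+A16G, start 1 reverse: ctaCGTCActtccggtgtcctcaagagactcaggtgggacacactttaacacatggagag
A gain was therefore called in 2 of the 6 placements only, start 1 reverse and start 21 forward, which are those with the lowest unmutated signal.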

How the data were processed

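Values are linear Cy5 spot intensity, deposited as output of Agilent Feature Extraction 12.0.1.1 and, per the file headers, background-subtracted and detrended across the array, with surrogate values for spots not above background. The deposited value table holds, as intensity, the median over spots of the background-subtracted spot median, and 4 of its columns belong to other groups and were not used. Each array held 179966 spots. Outlier spots by the scanner's own flag were left out (2.96% and 2.20%), and the log2 processed intensity was averaged over the remaining spots of a sequence. A sequence was at background where at most 0.5 of its spots were well above background, and a bound uses the dimmest custom sequence above background, at intensities of 1738 and 1607. Effects were tested with limma 3.58.1 (lmFit and eBayes, which share the spread across rows) in R 4.3.3, with Benjamini-Hochberg adjustment over the whole table and a threshold of 0.05. The unmutated probe's error is shared by all variants of a placement, and the number of arrays limits the precision. Tables were made with Python 3.11.15. The scripts were tested on simulated data. Members, lists and rules were chosen with earlier results of these data known. Named are all single changes at positions 8 to 16, the 10 lowest and, of the 10 highest doubles, those reported, the 12 palindromic doubles, the 5 lowest and 5 highest departures, and the largest strand and start differences; other names were chosen after their values were seen. Some variants are not reported here.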

Additional observations from a re-analysis of the deposited data

How the results depend on the processing

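No paired analysis was possible because only the CREB1 arrays were used and each effect is already a difference within an array. Leaving out an array leaves 1, so such values carry no test. Over the named results and their alternative settings, 1452 of 1477 kept their direction and their side of the threshold, 17 kept the direction but no longer passed, and 2 newly passed. The call lost most often was the gain of A6T+A7G at start 21 forward, under 6 of 8 settings. With dim sequences left out, departures from additivity passed for 239 of 797 doubles (30%, against 38.7% of 1080). Mirror differences then passed for 36 of 39 pairs (92.3%, against 81.1% of 132). With the placements of saturated unmutated sites left out, which leaves start 1 for the strand and the forward orientation for the start comparison, 696 strand differences passed (462 with the larger loss in reverse, 234 forward) and 772 start differences (645 with the smaller loss at start 1, 127 with the larger). Mirror differences within 1 placement passed for 14 pairs at start 11 reverse and 31 at start 21 reverse, and 137 departures passed among doubles expected above the floor. The departure of A11C+T14G turned positive from the value table (0.37), with normexp (0.25), with outlier spots kept (0.0039), with saturated placements left out (0.45) and forward only (0.17). C12G against G13C turned to -0.080 in forward placements. The cause of these reversals was not tested. Losses near background are lower limits. The part of saturation in the smaller losses at start 11 and 21 reverse was not tested.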
